A study of Mus musculus with 3 samples.

Results

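Complement is a cascade of blood proteins and cell receptors that tags microbes, dying cells and immune complexes. The 9 genes described here were chosen by name as complement components and receptors. They are C1qa, C1qb, C1qc, C3, Cfb, Cfp, C3ar1, C5ar1 and Cr2. Of these, 8 had a probe set annotated with that gene alone, 1 probe set each, among 19938 genes read in the same way. C3, the central component on which all activation routes converge, was not analysed here.

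The genes were read in 3 sorted populations of CD11c(hi) CD11b+ dendritic cells (DCs) of mouse spleen, on Affymetrix arrays that read whole transcripts. Control mice were Cx3cr1-GFP+ RBPJflox/flox littermates without Cre, and their cells were sorted as Esam(hi) GFP(lo) and as Esam(lo) GFP(hi). The 3rd array holds Esam(lo) GFP(hi) cells of Cx3cr1-GFP+ RBPJflox/flox CD11c-Cre+ mice, labelled RBPJnull. All mice therefore carried the floxed alleles and the reporter, and the recombinase is driven by the promoter of the CD11c gene, which is active in CD11c-expressing cells of any kind. Each group is 1 array of RNA from the pooled spleens of 2 to 3 mice, so there is no replicate error, no test was possible, and every difference is one between arrays. The sources used here state no ages. The comparisons ask what separates the Esam(hi) from the Esam(lo) cells, and whether Esam(lo) cells labelled RBPJnull differ from their control counterparts. RBPJ is the nuclear partner of Notch receptors.

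C1q is the recognition molecule of the classical route and is assembled from 3 kinds of chain, encoded by C1qa, C1qb and C1qc. It binds antibody in immune complexes and the surface of dying cells, and unlike most complement proteins, which the liver secretes, it is made largely by macrophages and DCs. Factor B (Cfb) and properdin (Cfp) belong to the alternative route: factor B supplies the protease of its C3 convertase and properdin stabilises that enzyme. C3ar1 and C5ar1 are receptors for the small fragments C3a and C5a released during activation. Cr2, also called CD21, binds C3 fragments fixed to antigen and is known from B cells and follicular dendritic cells.

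Values are log2 expression values as deposited, and 3 values in a row stand for control Esam(hi), then control Esam(lo), then RBPJnull cells. A gene was called above background on an array if it exceeded the level under which 95% of 1194 chemosensory receptor genes (Olfr and Vmn) lay there, which was 7.17, 6.76 and 6.87. Genes were counted as apart if their values differed at least 2-fold with the brighter array above background. All 6 classical DC markers listed were above background on all 3 arrays. Rbpj itself read 9.85, 9.85 and 10.04 on its brighter probe set, and 6.11, 5.63 and 5.63, below background, on the other. The brighter one was thus not lower on the array labelled RBPJnull, and since it is not known here which probes lie in the deleted part, the reading does not check the label. Esam read 7.79, 6.57 and 6.12, and Cx3cr1 read 8.32, 9.58 and 9.58, in the directions of the sort.

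Of the 8 measured genes, 4 were above background on the control Esam(hi) array and 6 on each Esam(lo) array. Over all genes 41%, 47.8% and 45.7% were above background. C1qb, C1qc, Cfb and Cfp were above it on all 3 arrays. C1qa and C5ar1 were above it only on the arrays of Esam(lo) cells. C3ar1 and Cr2 were below it on every array. The background level was highest on the Esam(hi) array, and the C1qa value there, 6.90, exceeded the levels of both Esam(lo) arrays. Exact ties are common in these data: 52% of all genes had exactly equal values on the control Esam(lo) and RBPJnull arrays, and 19% on all 3. Among the 8 genes these ties numbered 5 and 2. Such a tie is no evidence of equal expression.

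**Figure D1:**
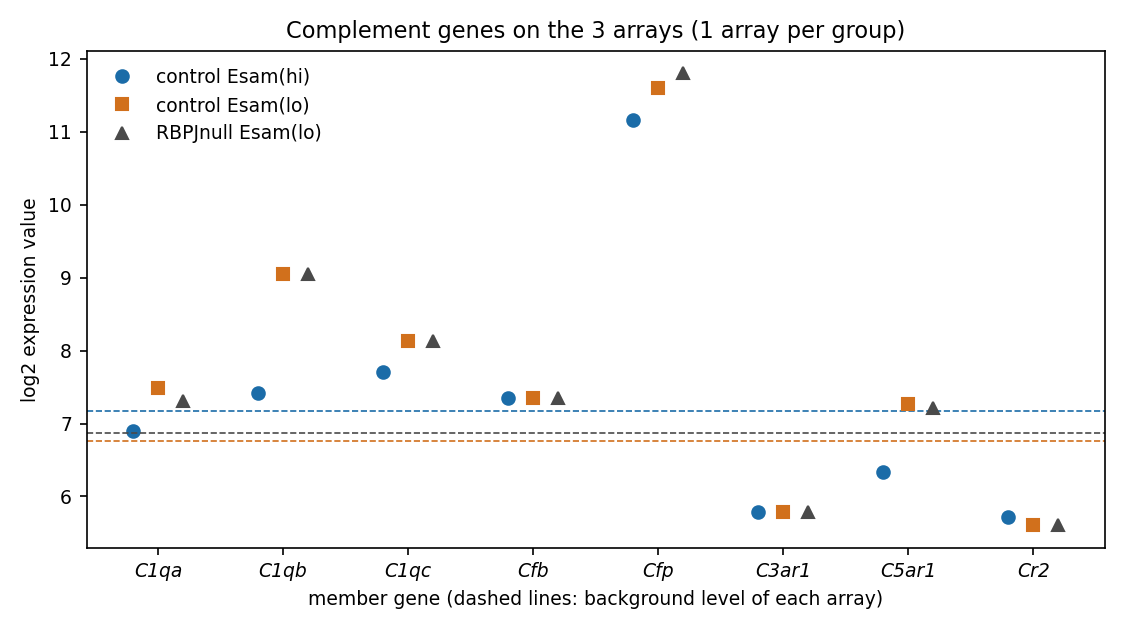
Log2 expression value (vertical axis) of the 8 measured complement genes on the 3 arrays, 1 point per array, with the background level of each array as a dashed line in its colour. C1qb sits at 7.42 on the control Esam(hi) array and at 9.06 on both Esam(lo) arrays, while C3ar1 and Cr2 lie under the background lines on all 3.

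C1qb showed the widest difference of the 8 genes. It read 7.42, 9.06 and 9.06, so the Esam(hi) cells were low and both Esam(lo) populations high. Its Esam(hi) value was 0.25 above that array's background level, and its Esam(lo) values were 2.29 and 2.18 above theirs. The difference of -1.64 between the control arrays is 3.12-fold. The median difference over the 9196 genes whose brighter control array was above background was -0.32, and 1.84% of them had a difference as low as that of C1qb or lower.

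C1qc was also lowest on the Esam(hi) array, at 7.71, against 8.14 and 8.14 in the Esam(lo) populations. The difference of -0.43 (1.35-fold) lay near the median of all genes, with 42.2% of them as low or lower. C1qa read 6.90, 7.49 and 7.30, the first of these below background. Between the control arrays it was therefore lower in Esam(hi) cells by at least 1.25-fold, and the values themselves differed by -0.60. The 3 genes of the C1q chains had their lowest value on the Esam(hi) array under the deposited values and under each of the other 3 scalings tried, but only C1qb passed 2-fold under any of them.

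In the RefSeq gene table C1qb, C1qc and C1qa follow each other on chromosome 4 with no other protein-coding gene between them. The 250 bases before the start of C1qb and of C1qc are shown because these adjacent genes differed between the control arrays by unequal amounts; the promoter table holds no window for C1qa. Both are from RefSeq, build GRCm38.p6, minus strand, written 5′ to 3′, at chr4:136886201-136886450 for C1qb and chr4:136892915-136893164 for C1qc. Capitals mark matches, on either strand, to any of 5 short motifs: RBPJ (TGGGAA), PU.1 (GAGGAA), the MAF core (TGCTGA), C/EBP (TTGCNNCAA) and NF-kB (GGGNNNTCC). No 2 matches overlapped in these windows.
C1qb: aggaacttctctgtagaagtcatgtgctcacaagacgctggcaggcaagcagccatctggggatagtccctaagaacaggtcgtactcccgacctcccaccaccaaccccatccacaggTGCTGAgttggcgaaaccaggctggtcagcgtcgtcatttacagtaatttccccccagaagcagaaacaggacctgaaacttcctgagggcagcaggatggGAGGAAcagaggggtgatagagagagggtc
C1qc: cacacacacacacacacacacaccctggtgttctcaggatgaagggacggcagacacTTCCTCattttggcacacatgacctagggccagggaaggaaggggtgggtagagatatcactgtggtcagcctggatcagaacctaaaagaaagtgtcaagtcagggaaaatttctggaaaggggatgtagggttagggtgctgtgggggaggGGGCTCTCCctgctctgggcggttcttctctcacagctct
The C1qb window holds the PU.1 letters 30 to 25 bases before the start and the MAF letters 131 to 126 bases before it. The C1qc window holds the PU.1 letters on the opposite strand, 193 to 188 bases before the start, and an NF-kB match 40 to 32 bases before it. PU.1 and MAF factors are known regulators of macrophage genes. Among all 32851 windows of this length in the table, 23.3% held the PU.1 letters, 16.1% the MAF letters and 15.2% the NF-kB letters, so such matches are common. Neither window holds the RBPJ letters, which 21.6% of all windows have. Whether any of these letters bears on the C1qb or C1qc readings was not tested.

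C5ar1, the receptor for C5a, read 6.34, 7.26 and 7.21. The Esam(hi) value was below background and the Esam(lo) values were 0.50 and 0.34 above it, so all 3 readings were dim. As a bound against background, Esam(hi) cells had at least 1.07-fold less. The difference of the values was -0.92, short of 2-fold. With an Esam(hi) value below background only this lower bound can be given as a fold. The differences that follow show how the call moves with the scaling. The difference passed 2-fold with each array centred on its median (-1.04), with quantile normalization (-1.02) and with the trend of differences on level removed (-1.02). Over all genes, 15.4%, 4.92% and 4.97% were 2-fold lower in these 3 settings.

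The C5ar1 window (chr7:16259339-16259588, minus strand, same source and marking) is shown as that of the only receptor among the 8 genes that was above background. It has the MAF letters 17 to 12 bases before the start and no other match.
C5ar1: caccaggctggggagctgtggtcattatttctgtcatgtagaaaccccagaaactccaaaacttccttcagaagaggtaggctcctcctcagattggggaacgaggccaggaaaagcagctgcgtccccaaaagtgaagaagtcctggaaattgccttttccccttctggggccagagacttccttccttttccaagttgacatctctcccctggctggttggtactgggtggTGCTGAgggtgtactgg

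Properdin was well above background throughout. Cfp read 11.16, 11.61 and 11.80. The control difference of -0.45 (1.36-fold) was close to that of all genes, 41.1% of which were as low or lower, and it shrank to -0.07 with the level trend removed. Cfp had its highest value on the array labelled RBPJnull, 0.19 above the control Esam(lo) array, and 6.17% of genes had a difference as high or higher in that comparison.

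Factor B read 7.35 on all 3 arrays, an exact tie, and lay 0.18 above background on the Esam(hi) array and 0.59 and 0.48 above it on the others. Its control difference of 0 became -0.12 with median centring and 0.13 with quantile normalization, so no direction can be given for Cfb.

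C3ar1 read 5.79 on all 3 arrays, below background on each. Cr2 read 5.72, 5.61 and 5.61, also below background throughout, so no fold is given for either gene. Markers of the cells known for Cr2 were measured beside it. Of 6 B cell markers measured out of 7 listed, Ms4a1, Cd79a, Pax5 and Fcer2a were not above background on any array, while Cd79b read 8.20, 9.12 and 9.29 and Blk was above background on the Esam(hi) array alone (7.59, 6.60 and 6.60). The summed linear values of that list were 687, 834 and 902. None of the 3 follicular dendritic cell markers measured out of 5 listed, Cxcl13, Madcam1 and Coch, was above background.

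The Cr2 window (chr1:195176720-195176969, minus strand, same source and marking) is shown because it is the only 1 of the 7 members' windows in the table that holds the RBPJ letters. They lie 220 to 215 bases before the start, and an NF-kB match on the opposite strand lies 121 to 113 bases before it. The match describes these letters and, with Cr2 below background on all arrays, no reading of the gene goes with it.
Cr2: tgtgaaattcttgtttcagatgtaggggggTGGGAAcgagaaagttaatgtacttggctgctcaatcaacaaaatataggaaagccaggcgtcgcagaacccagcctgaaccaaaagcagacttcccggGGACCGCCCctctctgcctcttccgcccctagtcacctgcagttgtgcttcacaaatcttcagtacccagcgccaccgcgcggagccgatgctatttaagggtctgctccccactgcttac

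Between the control arrays, then, 1 of the 6 members whose brighter array was above background was at least 2-fold lower in Esam(hi) cells and none was higher. Over all 9196 genes so filtered, 11.6% were 2-fold lower and 0.816% higher. Lower values of any size on the Esam(hi) array were found for 5 of the 6 members and for 71.2% of all genes. The members' median difference was -0.52, against -0.32 for all genes. The count of 1 member is thus near what the share over all genes would give for 6.

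Differences over all genes went with their level and with the scaling. The 2-fold counts over all genes were 75 higher and 1066 lower as deposited, 47 and 1477 with median centring, 200 and 457 with the level trend removed, and 249 and 464 with quantile normalization. Quantile normalization also moved the median difference of genes above background from -0.32 to 0.02. C1qb was the lowest of the members in each of these settings, with differences of -1.76 after median centring, -1.27 after trend removal and -1.36 after quantile normalization.

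**Figure D2:**
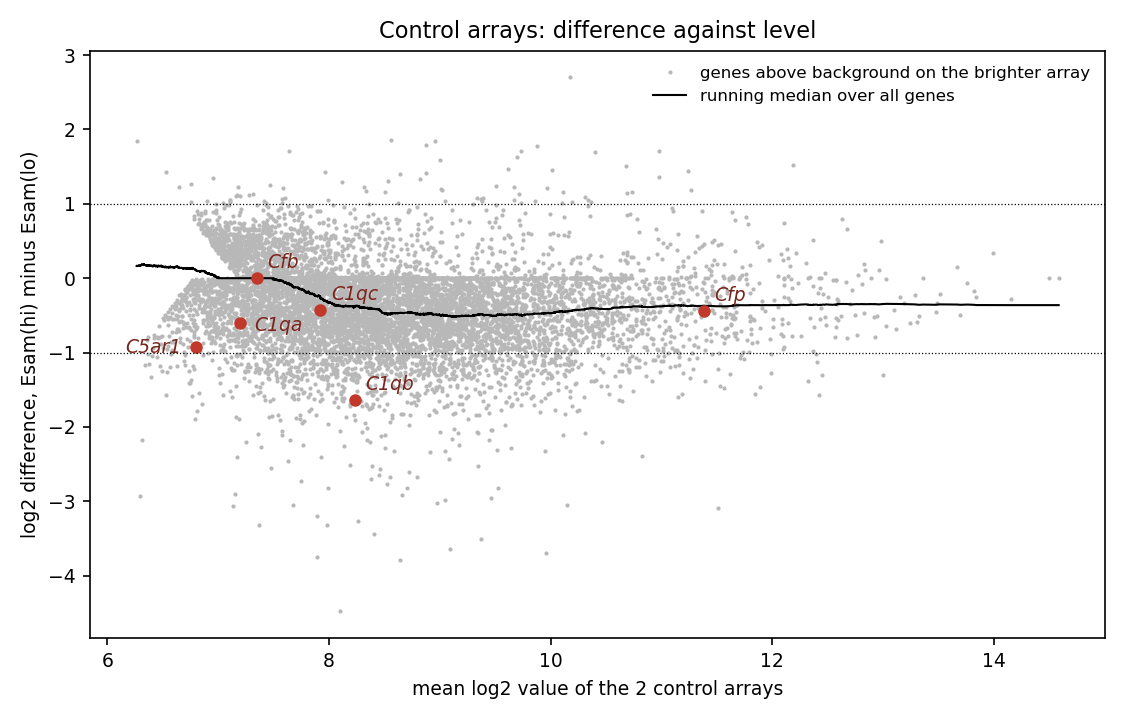
Log2 difference between the control arrays, Esam(hi) minus Esam(lo) (vertical axis), against the mean log2 value of both control arrays (horizontal axis), 1 grey point per gene above background on the brighter array, with the running median over all genes as a line and 2-fold as dotted lines. The 6 complement genes above background are in red: C1qb lies at -1.64, below the 2-fold line, while C1qc and Cfp lie close to the running median.

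**Figure D3:**
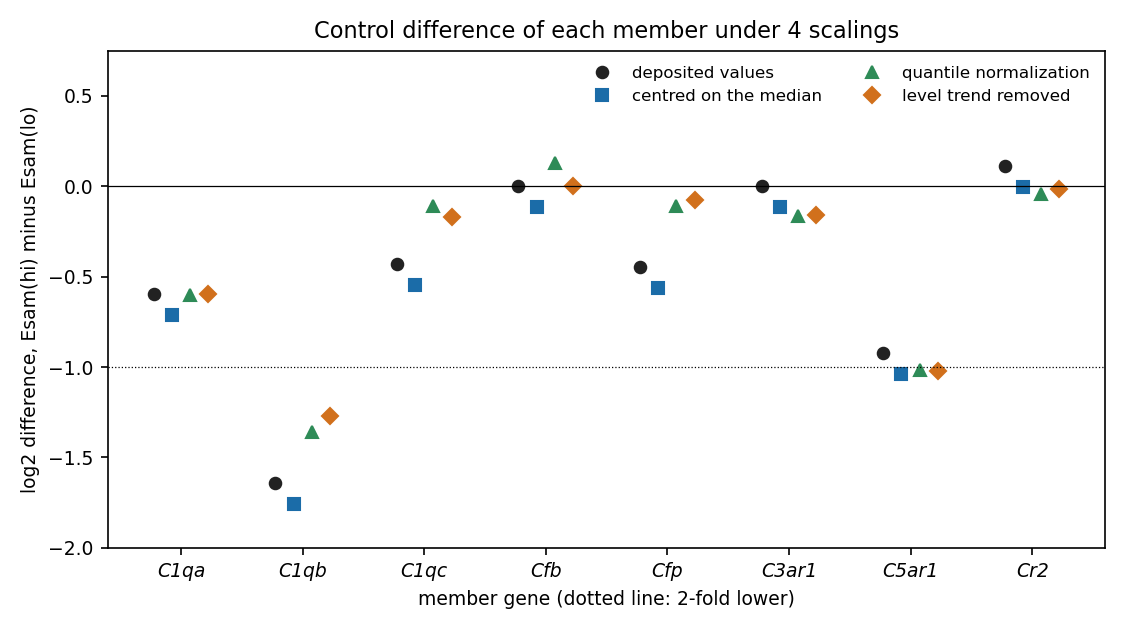
Log2 difference between the control arrays, Esam(hi) minus Esam(lo) (vertical axis), of the 8 measured complement genes (horizontal axis) on the deposited values and under 3 other scalings, 1 point per gene and scaling. C1qb stays between -1.76 and -1.27, C5ar1 lies on either side of the dotted 2-fold line, and the sign for Cfb changes with the scaling.

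The second comparison sets the array labelled RBPJnull against the control array of the same Esam(lo) GFP(hi) phenotype. None of the 6 members above background was 2-fold apart. Among all 9348 genes tested in this way, 0.0749% were 2-fold higher and 0.193% lower, so a member would seldom be expected among them. C1qb, C1qc and Cfb were exactly tied, C1qa differed by -0.19, C5ar1 by -0.05 and Cfp by 0.19. For C1qa, 5.39% of genes had a difference as low or lower. The members' differences thus ran from -0.19 to 0.19 with a median of 0, which was also the median over all genes.

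The third comparison sets the array labelled RBPJnull against the control Esam(hi) array and shares an array with each of the others. C1qb was 3.12-fold higher on the array labelled RBPJnull and was the only member 2-fold apart, where 12.9% of 9312 genes were 2-fold higher and 1.18% lower. C5ar1 differed by 0.87 (at least 1.03-fold against background), Cfp by 0.64 (1.56-fold), C1qc by 0.43 and C1qa by 0.41 (at least 1.10-fold). The median over all genes was 0.31, and 68.7% of them were higher on the array labelled RBPJnull. The share of genes as high or higher was 17.7% for C5ar1, 29.4% for Cfp, 42.2% for C1qc and 43.6% for C1qa. With the level trend removed C5ar1 joined C1qb beyond 2-fold, at 1.01, where 5.73% of all genes were 2-fold higher. In 5 of the 6 members the array labelled RBPJnull was nearer to the control Esam(lo) than to the control Esam(hi) value, and the sixth, Cfb, was tied; over all genes above background on at least 1 array, 81.7% were nearer to the control Esam(lo) value.

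By the smallest distance between centred log2 values over the 3 arrays, the genes most like C1qb in pattern were Dusp3, Ppt2, Vkorc1, Atp1b3 and Rps27l. Dusp3, a protein phosphatase, read 7.30, 8.93 and 8.93, and Ppt2, a lysosomal thioesterase, read 7.46, 9.11 and 9.11. Vkorc1, the vitamin K epoxide reductase subunit, read 6.68, 8.31 and 8.31, its first value being below background. With 3 arrays this pattern is shared by many genes: 273 of 9691 others above background (2.82%) lay within a distance of 0.25 of C1qb. Like C1qb, Dusp3, Ppt2 and Vkorc1 were exactly tied on the control Esam(lo) and RBPJnull arrays, as 52% of all genes were. Their distance to C1qb thus reflects only how far the Esam(hi) value lay from the tied values.

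The wider pathway was read from a list of 55 complement genes by role, of which 51 had a probe set and 17 were above background on at least 1 array. Over all genes 9692 of 19938 were above background on at least 1 array. The terminal components, which form the membrane pore, were below background on every array (7 of 7 measured), as were the fluid-phase regulators (7 of 7 measured out of 8 listed). In the classical route only the 3 C1q chain genes of 9 measured were above it: C1ra, C1s1, C1s2, C2, C4a and C4b were not. In the lectin route, which starts from sugar-binding proteins, 3 of 8 were above background on at least 1 array. Of these Fcnb, a ficolin, read 7.98, 8.25 and 8.25, while Mbl2 and Colec11 lay near the background levels.

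Among 6 membrane regulators, which protect host cells from complement, only Cr1l was above background. It read 6.05 (below background), 6.84 and 7.01, and its readings were too close to background for a bound on the fold. Cd55, Cd59a and Cd46 were below background on all 3 arrays.

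The receptor group held the other genes that were 2-fold apart. Of 12 receptor genes, 8 were above background on at least 1 array, and all 8 had lower deposited values in Esam(hi) cells than in control Esam(lo) cells, 4 of them at least 2-fold. Over all genes 71.2% were lower and 11.6% were 2-fold lower. The list was chosen with earlier results of these data known and holds the sort marker Itgam, so these counts are a description only. With the level trend removed, and likewise with quantile normalization, 7 of the 8 were lower, against 50.6% and 48.9% of all genes in these settings. With the trend removed the exception was Itgax, at 0.23. Lrp1, a large scavenger receptor known to take up C1q-coated cells together with calreticulin, read 8.50, 10.78 and 10.28. Between the control arrays that is 4.85-fold lower in Esam(hi) cells, and 0.522% of genes had a difference as low or lower. Cd93, a lectin-like surface protein once described as a C1q receptor, read 7.13, below background, then 8.75 and 8.58, a bound of at least 3.00-fold between the control arrays.

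C1qbp, which binds the globular heads of C1q and resides mainly in mitochondria, read 7.99, 9.29 and 9.29 (2.47-fold lower on the Esam(hi) array). Itgam, the alpha chain of complement receptor 3 and a marker used in the sort, read 9.50, 10.57 and 10.79 (2.11-fold). With the level trend removed, C1qbp and Itgam were no longer 2-fold apart (-0.84 and -0.62), while Lrp1 (-1.79) and Cd93 (-1.35) were. Calr, which encodes calreticulin, read 11.25, 11.71 and 11.89, and Itgb2, the beta chain of complement receptors 3 and 4, differed by -0.39 between the control arrays.

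Over the whole list 5 of the 16 genes whose brighter control array was above background were 2-fold lower in Esam(hi) cells and none was higher, against 11.6% lower and 0.816% higher over all genes. C1qb is 1 of the 5, and without the members the count was 4 of 10. As the list was chosen with earlier results of these data known, these counts describe it and are no test. The median difference of the 16 was -0.53, against -0.32 for all genes. At 1.5-fold the count was 8, where 32.0% of all genes were lower, and at 3-fold it was 3, where 2.13% were. The 8 include C1qa, C5ar1 and Cr1l by the difference of values alone. Their Esam(hi) values were below background, with bounds of 1.25-fold for C1qa, 1.07-fold for C5ar1 and none for Cr1l. Between the RBPJnull and control Esam(hi) arrays 5 of 16 were 2-fold higher in the former (12.9% of all genes), with 9 at 1.5-fold (32.4% of all genes) and 2 at 3-fold (2.76%). The 9 include C5ar1, with a bound of 1.03-fold, and Cr1l, with none. On the array labelled RBPJnull none of 15 was 2-fold apart from the control Esam(lo) array, with a median of 0. Lrp1 had the lowest difference there, at -0.50, and 0.599% of genes were as low or lower.

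**Figure D4:**
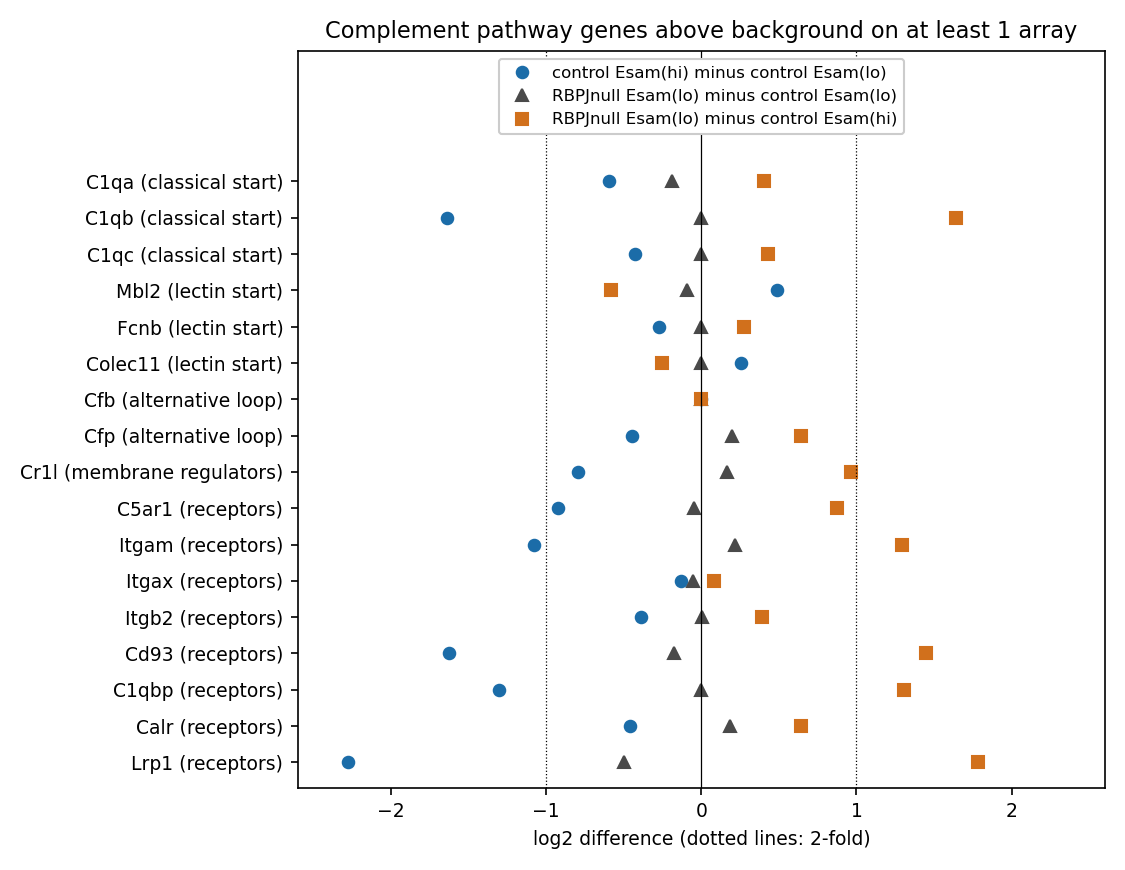
Log2 difference (horizontal axis) of the 17 complement pathway genes above background on at least 1 array (vertical axis, with role), 1 point per comparison, with 2-fold as dotted lines. The points for RBPJnull against control Esam(lo) lie between -0.50 and 0.22, while C1qb, Itgam, Cd93, C1qbp and Lrp1 lie beyond 2-fold in both comparisons with the control Esam(hi) array.

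Several marker lists of other cell types were also lower in Esam(hi) cells, where 11.6% of all genes were 2-fold lower. All 8 monocyte markers measured out of 9 listed were above background on the Esam(lo) arrays and at least 2-fold lower in Esam(hi) cells, and their summed linear values were 2608, 17804 and 17309. Of the 8, Cx3cr1, is the gene of the reporter used in the sort, which fixed its direction. Csf1r, the receptor for a macrophage growth factor, read 8.62, 11.67 and 11.31. Of 9 red pulp macrophage markers, 6 were above background on the control Esam(lo) array and 2 were 2-fold lower in Esam(hi) cells, with sums of 2568, 4312 and 4314. The 2 lower genes were Hmox1 and Treml4, and Treml4 is also on the monocyte list. Spic, the defining factor of these cells, read 6.89 (below background), 7.68 and 7.52, while Slc40a1, Cd5l and Mertk were not above background on any array. Of 5 markers of marginal zone and metallophilic macrophages, Marco, Siglec1, Cd209b and Timd4 were not above background on any array, and the sums were 470.2, 456 and 456.

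Neutrophil markers, which bear on C5ar1 and Cfp as genes known from granulocytes, were above background for 8 of 9 on the Esam(lo) arrays. Of these 5 were 2-fold lower in Esam(hi) cells, and the sums were 7280.2, 14959 and 16827. Mpo and Elane of the same list went the other way, with differences of 0.96 and 0.35. Of 6 CD8+ DC markers 2 were 2-fold lower, Clec9a and Naaa, with sums of 1058, 3196 and 3242, while Ly75 was higher by 0.88. Xcr1, Cd8a and Itgae of that list were not above background on any array. Of 4 NK cell markers 2 were 2-fold lower, Klrk1 and Klrd1, with sums of 863, 2035 and 2003. Ncr1 and Klrb1c, the others listed, were not above background on any array. The part of any of these cell types in the complement readings was not tested. In sorted bulk cells a lower value from fewer cells of a type and one from less RNA per cell cannot be told apart.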

How the data were processed

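RNA of 3 sorted spleen DC populations was amplified with a whole-transcript kit, labelled with biotin and hybridised to 1 array each, per the labels' protocols. Each probe set has a log2 expression value, made by the authors with RMA and Affymetrix Expression Console per the submitters' processing notes; versions, and which arrays were normalized together, the sources used here do not state. Precision is limited by having 1 array per group.

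Of 35556 probe sets, 21789 named a single gene and were used, while 1621 named several and 12146 named none. Their Entrez numbers matched a GRCm38.p6 gene table for 21698 probe sets, with no change of symbol. For genes with several probe sets, the probe set of highest mean was taken. A fold against an array below background is a lower bound, computed from that array's background level. Summed marker levels add 2 to the power of the log2 values.

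Python 3.11.15, numpy 2.4.6 and pandas 2.3.3 were used. Alternatives were no filter, a filter at the 75th percentile, median centring, quantile normalization, removal of the running median of differences over 1001 genes ordered by level, the mean of probe sets, and 1.5-fold and 3-fold thresholds. The members, lists, motifs and rules were chosen with earlier results of these data known. Named genes are the members, list genes at least 2-fold apart, the 5 genes nearest in pattern to any such member, and sort and cell type markers; other list genes were named after their values were seen. Promoter windows hold 250 bases before and 50 after a start; only the former were used.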

Additional observations from a re-analysis of the deposited data

How the results depend on the processing

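The count of members 2-fold apart between the control arrays was 1 as reported (C1qb). It was 2 with median centring, 2 with quantile normalization and 2 with the level trend removed, C5ar1 being added each time. C5ar1 was below background on the Esam(hi) array, with a bound of 1.07-fold on the deposited values, so 2-fold is not shown for it. At 1.5-fold the count was 3, where 32.0% of all genes were lower. C1qa and C5ar1, added there, were below background on the Esam(hi) array. Their bounds were 1.25-fold and 1.07-fold, so 1.5-fold is not shown for them. Between the RBPJnull and control Esam(hi) arrays the count of members was 1 as reported and 2 with the trend removed. At 1.5-fold it was 3, where 32.4% of all genes were higher, and C5ar1 among these had a bound of 1.03-fold. No member was 2-fold apart between the Esam(lo) arrays under any of the 8 alternatives. The pathway count of 5 between the control arrays became 8 at 1.5-fold and 3 at 3-fold. It was 6 with median centring, and 4 with quantile normalization and with the level trend removed. Among those 4, Itgam and C1qbp had left and C5ar1 had joined. The count of 5 between the RBPJnull and control Esam(hi) arrays became 9 at 1.5-fold and 2 at 3-fold. It was 6, 4 and 5 with median centring, quantile normalization and trend removal, Cr1l joining each time. Cr1l was below background on the Esam(hi) array and had no bound on the deposited values, so 2-fold is not shown for it. The signs of Cfb and Cr2 between the control arrays depended on the scaling. With 1 array per group neither animal nor array variation can be measured, and C1qa, C5ar1 and Cfb, no more than 0.73 above background on any array, are limited by signal over background.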
